A study of Capsella grandiflora and Capsella rubella and Capsella orientalis with 27 samples.

Results

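The 30 genes described here, of 26521 gene identifiers in the count tables, were those with at least 3 CPM (a gene's count scaled to a common library total of counts on genes) in Capsella grandiflora at every stage sampled, and at least 4-fold above both C. orientalis and C. rubella at every stage. Levels were means of 3 libraries, and 0.1 CPM was added to each mean before the ratio. The species contrasts at each stage therefore chose the genes, so the differences between C. grandiflora and the other species are given as a description and carry no test. RNA came from seedlings or flower buds of 3 species: C. grandiflora, which outcrosses, and C. orientalis and C. rubella, which fertilise themselves. Each was sampled as seedlings at 10 days, as dividing flower buds and as expanding or maturing flower buds, with 3 libraries for each of the 9 groups. The labels name no accession, line, allele or treatment, and do not say whether the 3 libraries of a group came from separate plants, so p-values measure only the spread between these libraries, which may be technical.

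Capsella belongs to the mustard family. C. grandiflora is self-incompatible and must receive pollen from another plant, which keeps many alleles segregating in its populations, whereas selfing species pass through generations of inbreeding and their plants carry little variation within a line. C. rubella arose from an ancestor much like C. grandiflora, and C. orientalis belongs to a separate lineage that became selfing on its own. Both have smaller flowers than the outcrosser, the set of traits known as the selfing syndrome. The count tables give identifiers without gene names, so what the 30 genes encode was not analysed here, and the labelled tissues could not be checked against named markers. At most 2 identifiers per comparison and direction are singled out by rule, and any others are said to have been picked after their values were seen.

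Counts on genes ranged from 10612848 to 40909319 per library, lowest in C. grandiflora seedlings. Reads that aligned to several places, which were counted to no gene, made up 4.13% to 9.30% of the listed reads as group means. Within C. grandiflora they made up 9.30% in seedlings, 4.97% in dividing buds and 4.33% in expanding buds. At the same stages they made up 8.33%, 7.90% and 6.75% in C. orientalis and 7.10%, 4.45% and 4.13% in C. rubella. Their part in the results was not tested. The bulk RNA of a bud or seedling does not tell less RNA per cell from fewer cells of a type.

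The 30 genes were present in C. grandiflora at moderate levels and close to absent in most libraries of the selfing species. Together they summed to 479 ± 8.26 CPM in C. grandiflora seedlings, against 12.1 ± 0.471 CPM in C. orientalis and 27.6 ± 2.66 CPM in C. rubella seedlings (SD, n = 3 each). In dividing buds the sums were 506 ± 20.5 CPM in C. grandiflora, 11.3 ± 0.649 CPM in C. orientalis and 26.4 ± 0.723 CPM in C. rubella. In expanding buds they were 436 ± 8.13 CPM in C. grandiflora, 9.80 ± 1.43 CPM in C. orientalis and 30.2 ± 1.34 CPM in C. rubella. A single gene, Carubv10025276m.g, supplied much of the C. rubella sum, at 19.2 ± 3.93 CPM in seedlings, 11.2 ± 0.181 CPM in dividing buds and 13.8 ± 1.06 CPM in expanding buds. The median member stood at 7.96 CPM in C. grandiflora seedlings, 9.63 CPM in dividing buds and 8.19 CPM in expanding buds. In C. orientalis the median member stood at 0.0672, 0.0928 and 0.0516 CPM at the same stages, and in C. rubella at 0.0390, 0.196 and 0.171 CPM. No C. grandiflora library had a member at 0 counts, while 8 to 13 members were at 0 in each C. orientalis library and 5 to 15 in each C. rubella library.

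**Figure D1:**
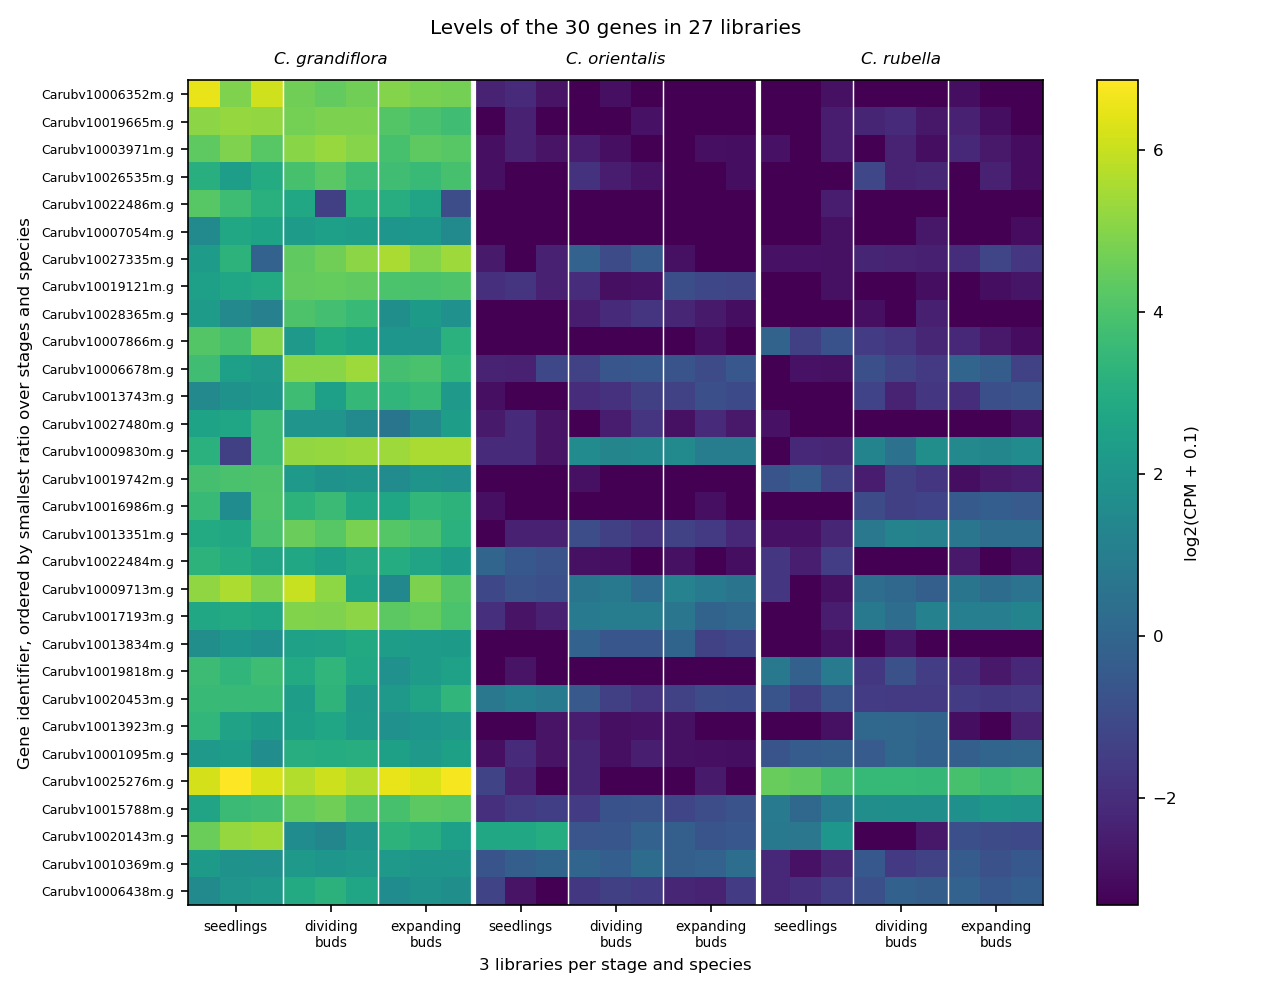
Levels of the 30 genes, one row each, in 27 libraries, as log2(CPM + 0.1) on the colour scale, with the 3 libraries of each stage side by side within each species. All rows are bright across C. grandiflora apart from single dark libraries in a few rows, and Carubv10025276m.g stays visible in C. rubella at 11.2 to 19.2 CPM as stage means.

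At every stage all 30 genes had their 3 C. grandiflora libraries above all libraries of both selfing species, which was so for 2.75% of the 23186 genes tested. For 27 of the 30 even the lowest of the 9 C. grandiflora libraries lay above the highest of the 18 selfing libraries, whatever the stage. The share of all genes that met this stricter condition was not computed, and the 2.75% does not apply to it. Because the rule used these contrasts, the counts only restate the choice of genes. All 30 passed the filter on low counts, which the levels in C. grandiflora were enough to meet.

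The margin by which the genes met the rule was wide for some and narrow for others. The smallest of a gene's 6 ratios ranged from 4.10 to 216, with a median of 12.8, and was at least 10 for 18 genes, at least 30 for 7 and at least 100 for 3. It was the ratio to C. rubella in 16 genes and to C. orientalis in 14, and it fell in expanding buds for 17 genes, in dividing buds for 7 and in seedlings for 6. The 3 genes just inside the threshold had smallest ratios of 4.10, 4.25 and 4.28. The 3 genes next below it, at 3.91, 3.84 and 3.60, reached the level required. The lowest stage mean among the members was 3.08 CPM, and the gene next below that level stood at 2.96 CPM. The same rule with C. orientalis as the high species gave 46 genes and with C. rubella 81, and 23 genes met both thresholds in the reverse direction, high in both selfing species. Set against C. orientalis alone, 181 genes met the rule in C. grandiflora, and set against C. rubella alone, 65 did.

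Carubv10006352m.g had the largest smallest ratio. It stood at 92.2, 29.9 and 70.7 CPM in the C. grandiflora seedling libraries, at 25.3, 21.2 and 25.4 CPM in dividing buds and at 31.1, 27.9 and 26.6 CPM in expanding buds. Over all 9 libraries it gave 8867 counts in C. grandiflora, against 8 in C. orientalis and 2 in C. rubella. No C. orientalis expanding bud library held a count of it, and against a floor of 3 counts over that group it was at least 856-fold higher in C. grandiflora. In dividing buds it had no count in C. rubella and was at least 673-fold higher in C. grandiflora by the same floor. The floors and intervals here cover counting error only. Carubv10019665m.g followed, with 34.0, 37.8 and 36.7 CPM in C. grandiflora seedlings, 26.3, 28.7 and 28.8 CPM in dividing buds and 17.6, 15.2 and 13.3 CPM in expanding buds. It gave 6256 counts in C. grandiflora over 9 libraries, 3 in C. orientalis and 14 in C. rubella, so no selfing library came near those of C. grandiflora.

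In the selfing species the members ranged from no counts at all to low but readable levels. In C. orientalis 2 genes had 0 counts in all 9 libraries, 10 had under 10 counts in all, and 13 had every stage mean under 0.1 CPM. In C. rubella no gene was at 0 throughout, 7 had under 10 counts and 8 had every stage mean under 0.1 CPM. Both species were under 0.1 CPM at every stage for 5 genes. A stage mean of at least 1 CPM was reached by 5 genes in C. orientalis, 8 in C. rubella, 9 in either and 4 in both.

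C. orientalis and C. rubella, whose contrast the rule did not use, differed from each other in 19 of the 30 genes at 1 or more stages, against 88.8% of all genes. In C. orientalis seedlings 5 members stood above and 6 below C. rubella (edgeR's quasi-likelihood test, p adjusted by Benjamini-Hochberg over the 23186 genes and called below 0.05), where 31.4% of all genes were called higher and 28.8% lower. In dividing buds 4 were higher and 10 lower, against 31.1% and 27.5% of all genes, and in expanding buds 4 were higher and 10 lower, against 29.6% and 32.6%. Most members were low in both species, and the higher of the 2 species stood under 1 CPM for 25 members in seedlings and for 24 in each bud stage. Members this low entered the test through their counts in C. grandiflora, and few counts limit what can be called. Some were called even so. Only 5 of the called members in seedlings, 3 in dividing buds and 4 in expanding buds reached 1 CPM in the higher species. Nothing is read from the members' lower share beside the genes called either way, 60.2%, 58.6% and 62.1% of all. In fits of the compared groups alone 8 members passed the filter in seedlings and 14 in each bud stage, of which 8, 10 and 9 were called, where 59.2%, 71.7% and 71.4% of all genes were. Of the 10 called in dividing buds 6 were lower, and of the 9 in expanding buds 2 were higher. The others called at each stage went the opposite way. In the fit of all groups 11 members were lower in C. orientalis at some stage and never higher, against 36.6% of all genes, and 7 were higher and never lower, against 39.3%. One way at 1 stage and the other way at another was the call for 1 member and for 12.8% of all genes. The median log2 fold of the members was 0.46 in seedlings, 0.04 in dividing buds and -1.38 in expanding buds, while the median over all genes was 0.00, 0.03 and -0.02. Fitted folds of genes with few counts, and medians over them, depend on the prior count. The difference between these species itself changed between stages in 5 members, 3 for each pair of stages, where 60% of all genes had a called change between any stages (40.6% for dividing buds relative to seedlings, 23.1% for expanding relative to dividing buds and 43.6% for expanding buds relative to seedlings). Many members had 0 to 3 counts in a group of this comparison, which gave very wide errors, so nothing is read from the lower number. Without replicate 2 or replicate 3 of C. rubella expanding buds the members called higher there numbered 2.

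**Figure D2:**
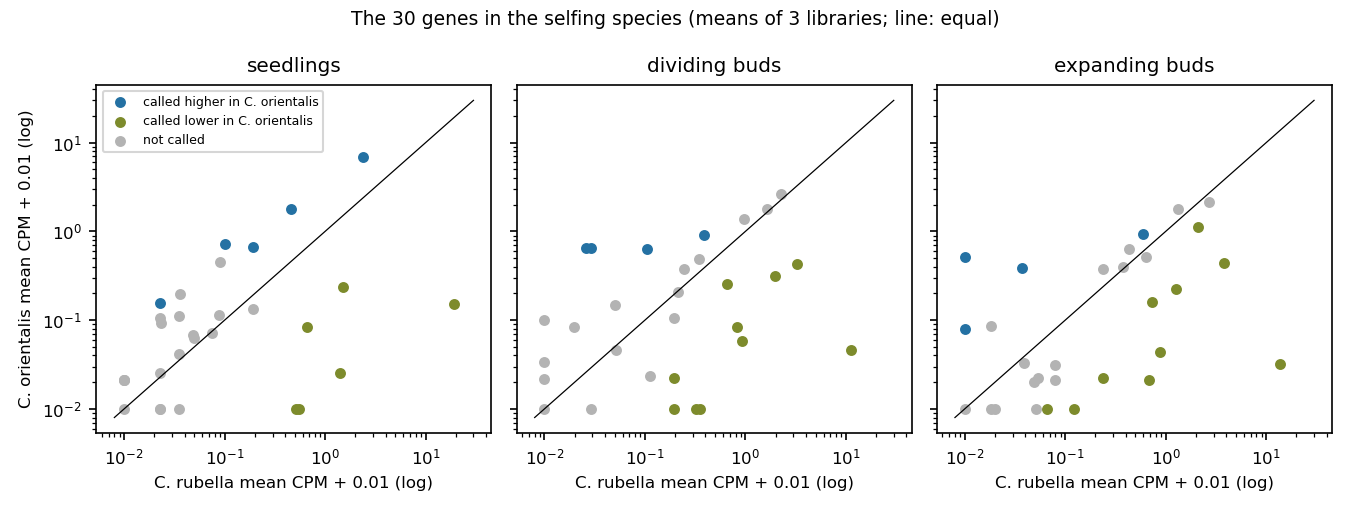
Mean level of each of the 30 genes in C. orientalis (vertical axis) against C. rubella (horizontal axis), as mean CPM + 0.01 of 3 libraries on log scales, 1 panel per stage, with the line of equal levels. Blue points were called higher and green points lower in C. orientalis; the green point farthest to the right in each panel is Carubv10025276m.g, at 0.141, 0.0361 and 0.0220 CPM in C. orientalis and 19.2, 11.2 and 13.8 CPM in C. rubella.

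Carubv10025276m.g, the most abundant member, kept a reduced level in C. rubella and was nearly absent from C. orientalis. In seedlings it stood at 73.8, 116 and 75.6 CPM in C. grandiflora, at 0.329, 0.0934 and 0 CPM in C. orientalis and at 22.4, 20.4 and 14.8 CPM in C. rubella. In expanding buds the C. grandiflora libraries held 91.0, 77.6 and 106 CPM, those of C. orientalis 0, 0.0660 and 0 CPM and those of C. rubella 14.7, 12.7 and 14.1 CPM. The 3 species did not overlap at any stage. In C. orientalis it had 12 counts in seedlings, against 1458 in C. rubella, a log2 fold of -6.83 (SE 0.37, edgeR quasi-likelihood, Benjamini-Hochberg adjusted p = 7.7e-14). In dividing buds C. orientalis held 3 counts and C. rubella 939, a C. rubella level 304 times as high as CPM (95% counting interval 104 to 1476). In expanding buds the counts were 2 in C. orientalis and 1457 in C. rubella, 623 times as high (172 to 5151). The seedling fold turns on few counts, and without replicate 1 of C. orientalis seedlings it was -8.58.

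Carubv10015788m.g was also lower in C. orientalis at all 3 stages, 1 of 5 such members, against 12.7% of all genes. In dividing buds it stood at 0.253, 0.487 and 0.515 CPM in C. orientalis, against 3.16, 3.30 and 3.28 CPM in C. rubella, a log2 fold of -2.90 (SE 0.31). In expanding buds its log2 fold was -3.05 (SE 0.29), with 0.427 ± 0.0881 CPM in C. orientalis and 3.76 ± 0.379 CPM in C. rubella (SD, n = 3 each). The C. grandiflora libraries, at 14.7, 19.6 and 18.4 CPM in expanding buds, lay above both. Carubv10019818m.g was the other gene singled out in seedlings, with 1 count in C. orientalis and 107 in C. rubella. That is a C. rubella level 103 times as high, with a counting interval of 18.2 to 4125.

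Among genes higher in C. orientalis, Carubv10020143m.g had its highest mean in seedlings in all 3 species. It stood at 24, 38.3 and 42.6 CPM in C. grandiflora seedlings, at 6.54, 6.63 and 7.72 CPM in C. orientalis and at 1.62, 1.52 and 3.95 CPM in C. rubella. C. orientalis exceeded C. rubella without overlap, by a log2 fold of 1.58 (SE 0.27, edgeR quasi-likelihood, Benjamini-Hochberg adjusted p = 2.2e-05). Carubv10020453m.g was likewise higher in C. orientalis seedlings, at 1.58, 2.01 and 1.78 CPM against 0.526, 0.280 and 0.527 CPM in C. rubella, a log2 fold of 2.02 (SE 0.41). No called member met the level of 1 CPM required for naming on the higher side in either bud stage. Carubv10010369m.g was the single member called higher in C. orientalis at all 3 stages, where 12.7% of all genes were, and a gene picked out after its values were seen. It stood at 0.714 ± 0.174 CPM in C. orientalis seedlings and 0.0914 ± 0.0447 CPM in C. rubella seedlings, and at 0.918 ± 0.229 and 0.589 ± 0.0976 CPM in expanding buds of the same species (SD, n = 3 each).

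Within C. grandiflora some of the 30 genes were higher in buds and some in seedlings, and fewer were called between the bud stages than against seedlings. The rule asked only for 3 CPM at each stage, which leaves out genes nearly confined to 1 stage. The highest stage mean was found in seedlings for 14 genes, in dividing buds for 12 and in expanding buds for 4. With TMM scaling the same tally was 14, 9 and 7, so the split between the bud stages depends in part on scaling. The highest and lowest stage means were under 2-fold apart in 10 of the 30 (33.3%), against 49.0% of the 14081 genes with at least 3 CPM at every stage, and the median range was 2.36-fold, against 2.02-fold.

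In dividing buds 12 members were higher and 11 lower than in seedlings of C. grandiflora by edgeR's quasi-likelihood test, where 40.3% of all genes were called higher and 36.5% lower, so that 76.7% of the members and 76.8% of all genes were called, shares that are alike. In expanding buds 8 were higher and 11 lower than in seedlings, against 40.1% and 36.9% of all genes, so that 63.3% of the members and 77% of all genes were called. Between the bud stages 3 were higher and 6 lower in expanding than in dividing buds, against 35.9% and 36.1% of all genes. That made 30% of the members and 72% of all genes called. A fit of these 2 groups alone called 12 members and 76.1% of all genes. The rule left out genes nearly confined to 1 stage, and the members varied more among libraries, as given below. Few calls can follow from either, which was not tested, so nothing is read from the lower shares. In both bud stages 8 members were higher than in seedlings, against 25.6% of all genes, and 9 were lower, against 26.5%. Opposite calls in the bud stages relative to seedlings were found for 0 members and 9.39% of all genes by this edgeR test. Peak levels in dividing buds, called above both seedlings and expanding buds, were found in 4 members and 22.5% of all genes. For 5 members, and for 5.99% of all genes, none of the 3 stage contrasts passed the test, which does not show that they were level. The median absolute log2 fold of the members was 0.95 for dividing buds against seedlings, 0.87 for expanding buds against seedlings and 0.36 between the bud stages, and over all genes it was 0.88, 0.90 and 0.70.

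**Figure D3:**
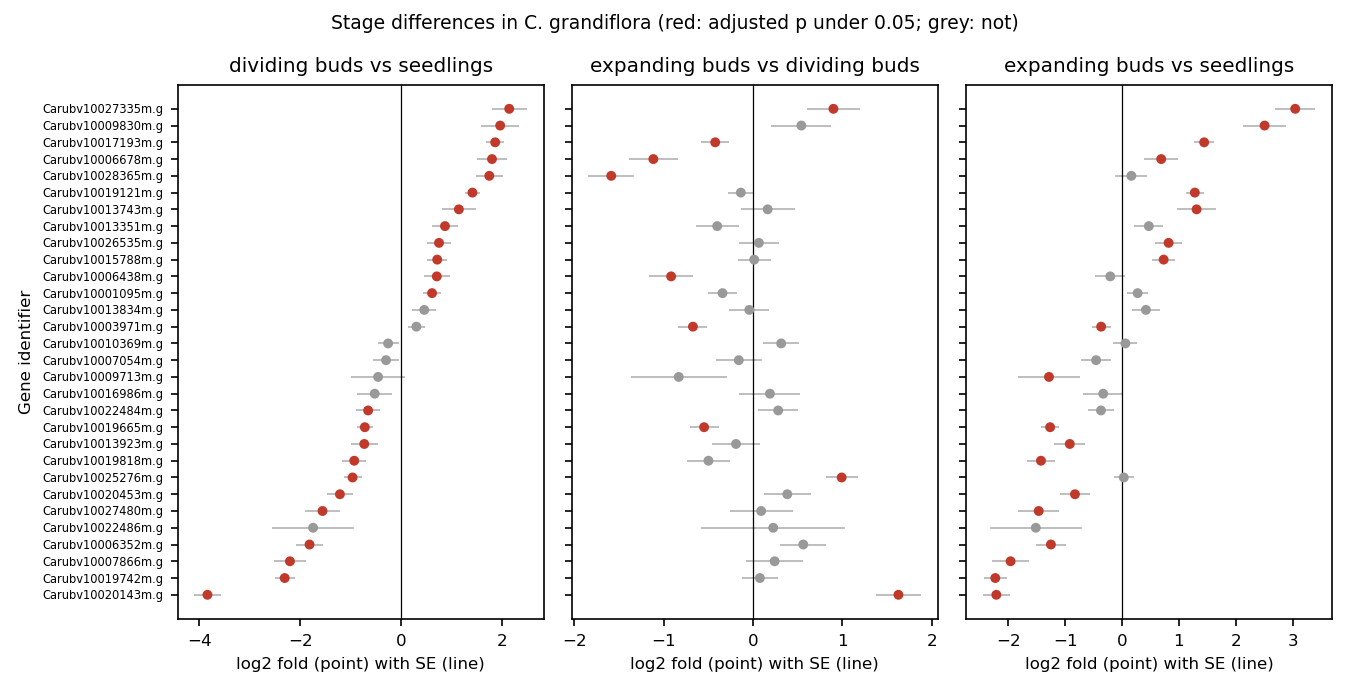
Log2 folds between stages of C. grandiflora for each of the 30 genes, ordered by the first panel, with the SE as a line; red points passed an adjusted p under 0.05 and grey ones did not. The outer panels show called genes on both sides of 0, 12 and 11 in dividing buds against seedlings, while the middle panel shows 9 called genes.

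Carubv10027335m.g showed the largest rise into buds. Its libraries held 4.89, 9.42 and 0.818 CPM in C. grandiflora seedlings, 20.5, 25.4 and 33.9 CPM in dividing buds and 47.2, 31.4 and 40.9 CPM in expanding buds. Its log2 fold against seedlings was 2.15 (SE 0.35) in dividing buds and 3.05 (SE 0.35) in expanding buds, and no bud library overlapped those of seedlings. Without replicate 2, the highest of the seedling libraries, the folds were larger, 2.73 and 3.63. Replicate 3, at 0.818 CPM, lowers the seedling level against which the folds were taken. Carubv10009830m.g followed, at 8.91, 0.283 and 12.3 CPM in seedlings, 37.1, 38.5 and 40.5 CPM in dividing buds and 40.8, 47.7 and 47.9 CPM in expanding buds, with log2 folds of 1.97 (SE 0.38) and 2.51 (SE 0.38) against seedlings. The bud levels of this gene were low but readable in the selfing species as well. They stood at 2.63 ± 0.265 CPM in C. orientalis dividing buds and 2.27 ± 0.911 CPM in C. rubella dividing buds, while seedlings held 0.106 ± 0.0522 and 0.0777 ± 0.0674 CPM (SD, n = 3 each).

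Carubv10020143m.g had the largest fall into dividing buds, at 3.00, 2.47 and 3.75 CPM there against 24, 38.3 and 42.6 CPM in C. grandiflora seedlings, a log2 fold of -3.84 (SE 0.26, edgeR quasi-likelihood, Benjamini-Hochberg adjusted p = 1.64e-12). It was higher in expanding than in dividing buds by 1.63 (SE 0.25) on the log2 scale, at 9.48, 8.05 and 5.24 CPM, and was below seedlings at both bud stages. Carubv10019742m.g was also lower in both bud stages, with 14.4, 15.5 and 16.1 CPM in seedlings, 4.29, 3.66 and 3.82 CPM in dividing buds and 2.88, 3.76 and 3.42 CPM in expanding buds. Its log2 folds against seedlings were -2.31 (SE 0.20) and -2.23 (SE 0.20), and its libraries agreed closely at each stage.

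Carubv10028365m.g and Carubv10006678m.g were the genes singled out as lower in expanding than in dividing buds. Carubv10028365m.g stood at 4.71, 2.64 and 2.04 CPM in C. grandiflora seedlings, 16, 14.2 and 11.8 CPM in dividing buds and 3.23, 4.62 and 3.49 CPM in expanding buds, and fell by 1.59 (SE 0.26) on the log2 scale between the bud stages. Carubv10006678m.g stood at 13.2, 5.28 and 4.44 CPM, 33.1, 32.8 and 41.9 CPM and 14.5, 15.1 and 10.5 CPM at the same stages, and fell by 1.11 (SE 0.27). Carubv10025276m.g was higher in expanding than in dividing buds of C. grandiflora, at 91.4 ± 14 against 57.0 ± 9.41 CPM, a log2 fold of 0.99 (SE 0.18).

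Where the selfing species kept readable levels, their stage of highest level was that of C. grandiflora in some members and not in others. Of the 5 members that reached 1 CPM in C. orientalis 3 had the same highest stage as in C. grandiflora, and of the 8 in C. rubella 4 did. These are counts of few genes and were not tested. The same share over all genes was not computed, so nothing is read from them.

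The 30 genes also varied among the C. grandiflora libraries of a single stage, a measure the rule did not use beyond the mean of those libraries. Their median coefficient of variation was 27% in seedlings, 16% in dividing buds and 17.3% in expanding buds. For all genes with at least 3 CPM at the stage it was 13.3%, 6.23% and 8.53%, and 24, 24 and 25 of the 30 lay above that. Among genes of 3 to 20 CPM the median was 16.4%, 9.02% and 10.1%, while the members in that range, 23, 18 and 26 in number, had medians of 24.4%, 18.6% and 19.1%.

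Single libraries far below the others of their stage made up the extreme. In 4 of the 30 genes (13.3%) the highest library of a stage exceeded the lowest by at least 10-fold. Of the 14081 genes with at least 3 CPM at every stage of C. grandiflora 11 did so (0.0781%), these 4 among them. In expanding buds only 4 of 16521 genes at 3 CPM or more had such a range, and 2 of them were members; in dividing buds it was 7 of 16490, again with 2 members, and in seedlings 33 of 16115, with 2 members. At a 3-fold range the members numbered 7 and all genes with at least 3 CPM at every stage 68. None of the 46 genes that met the rule for C. orientalis, nor of the 81 for C. rubella, had a 3-fold range within a stage of their species. Of all genes with at least 3 CPM at every stage, 53 of 13809 (0.384%) had such a range in C. orientalis. In C. rubella it was 56 of 14034 (0.399%). With shares this low, nothing is read from its absence in sets of 46 and 81 genes. These are counts without a test, and the libraries of a stage were few.

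**Figure D4:**
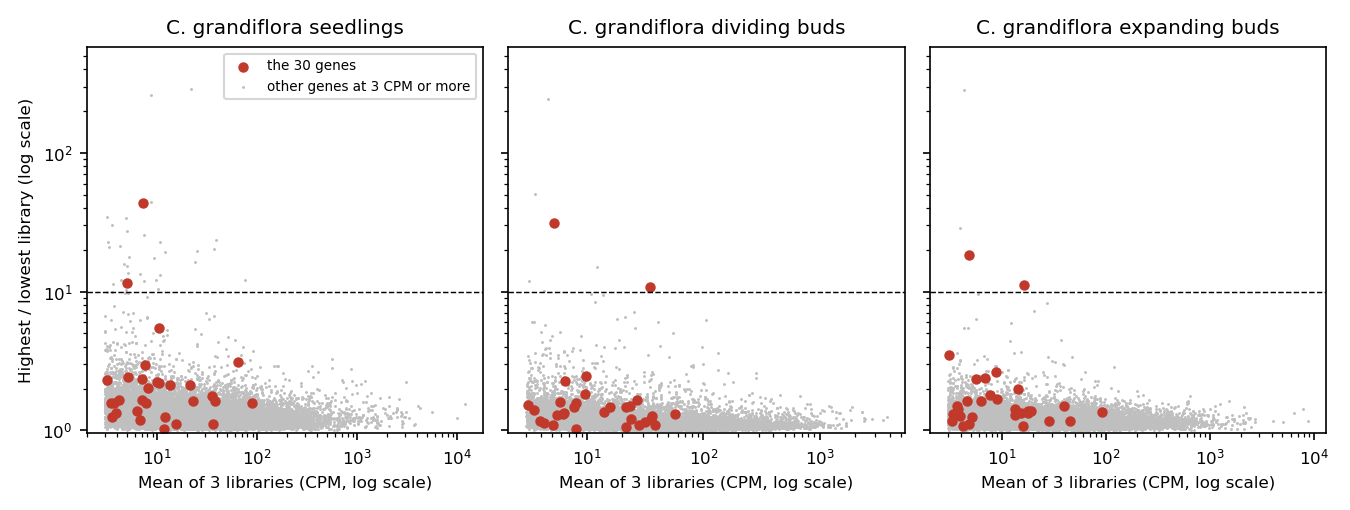
Ratio of the highest to the lowest of 3 C. grandiflora libraries against their mean CPM, both on log scales, for the 30 genes (red) and all other genes at 3 CPM or more (grey), 1 panel per stage. Above the dashed line at 10-fold lie 2 members in each panel.

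Carubv10022486m.g stood at 18.5, 13.0 and 8.76 CPM in C. grandiflora seedlings, at 6.69, 0.278 and 8.73 CPM in dividing buds and at 7.97, 6.05 and 0.437 CPM in expanding buds. The low values were 11 and 12 counts, in replicate 2 of dividing and replicate 3 of expanding buds, and the other libraries of these groups held 169 to 326 counts. C. orientalis had 0 counts of it in 9 libraries and C. rubella 2, so the low C. grandiflora libraries were near, but above, the selfing species. Carubv10009830m.g was low in seedling replicate 2, with 3 counts against 195 and 211 in the others, and was even in buds.

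Carubv10027335m.g was low in seedling replicate 3, with 14 counts against 107 and 100, while its bud libraries were within 2-fold of each other at each stage. Carubv10009713m.g stood at 35.6, 49.0 and 30.3 CPM in seedlings, at 63.7, 35.4 and 5.91 CPM in dividing buds and at 2.57, 28.8 and 17.4 CPM in expanding buds. Its lowest library, replicate 1 of expanding buds, was close to the highest of C. orientalis at that stage, 2.21 CPM, and of C. rubella, 1.44 CPM. The low libraries were not the same from gene to gene: replicate 2 of seedlings and of dividing buds, replicate 3 of all 3 stages and replicate 1 of expanding buds each held 1 low value. The 4 genes were picked out by this range after their values were seen. Carubv10009830m.g and Carubv10027335m.g, together with Carubv10020143m.g, were the 3 genes whose lowest C. grandiflora library did not lie above every selfing library.

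**Figure D5:**
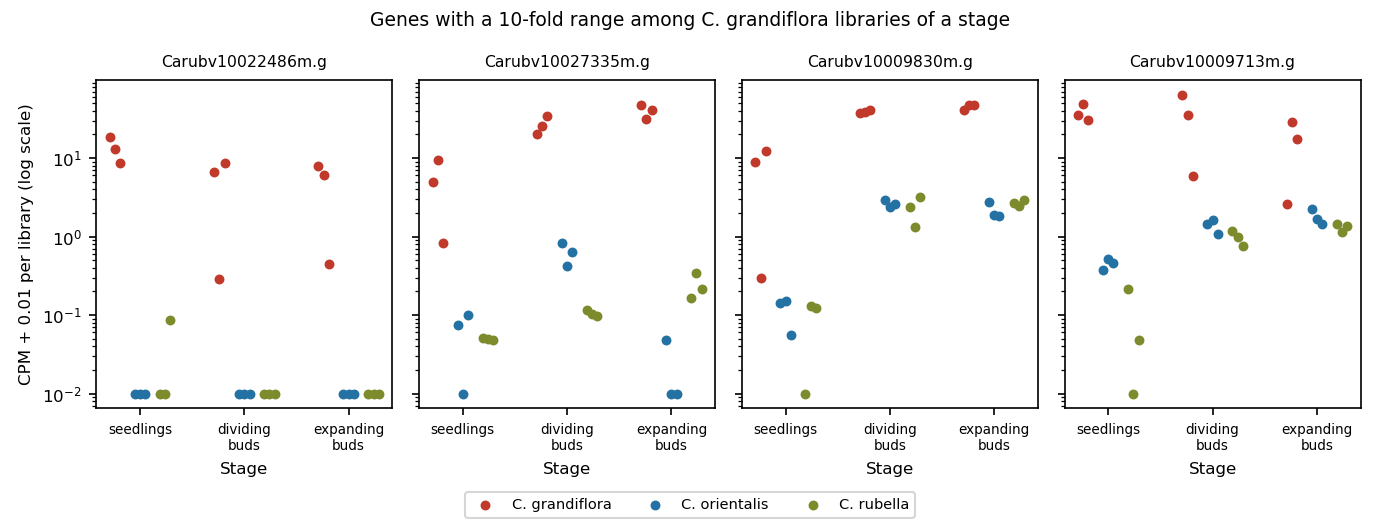
CPM + 0.01 per library on a log scale for the 4 genes with at least a 10-fold range within a C. grandiflora stage, with C. grandiflora in red, C. orientalis in blue and C. rubella in green. In each panel 1 or 2 red points lie far below the others of their stage, such as 0.278 CPM of Carubv10022486m.g in dividing buds. Blue and green points lie below the red points of the same stage, and for Carubv10009830m.g they rise from seedlings to buds.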

How the data were processed

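RNA-seq counts of 27 libraries were used, 3 for each of 9 groups of species and stage, grouped by the labels' titles. Values are whole-number read counts for each gene, deposited as the authors made them with Trimmomatic and HTSeq, per the submitters' processing notes. Libraries were TruSeq RNA libraries read as single reads of 50 cycles, per the labels' protocols. The aligner, its settings, the genome build and the use of strand were not given in the sources used here. The 27 files share 26521 Carubv identifiers, the naming used for C. rubella gene models, and thus 1 set of models served all 3 species. Reads that differ from those models can be lost, near-identical copies can share or lose reads, and reads of an antisense partner may be included. Such losses can change a gene's count in a species at every stage. The 5 summary rows that name no gene were left out. Group means of reads outside genes were 3.04% to 5.57% and of ambiguous reads 3.78% to 4.63%.

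CPM were computed here as counts over the sum of gene rows, and the rule was applied to group means. Counts were tested in R 4.3.3 with edgeR 4.0.16 (filterByExpr, 23186 genes, TMM scaling, all 9 groups in 1 fit, leaving 18 residual degrees of freedom, quasi-likelihood F-test, Benjamini-Hochberg adjustment over all genes tested, called under 0.05). The SE is the log2 fold divided by the square root of F. DESeq2 1.42.0 was an alternative. A count of 0 in a group was set at a floor of 3 counts over the group, and counting intervals are exact binomial at 95%. The script was tested on simulated counts. No pair of replicates agreed within sampling noise (chi-square per degree of freedom 5.14 to 43.0).

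Genes were named for the largest smallest ratio, for the highest lowest-stage level in C. grandiflora, for the largest called fold between stages, and for the largest called fold between the selfing species where groups did not overlap and the higher one averaged at least 1 CPM. Each of these was limited to 2 identifiers per direction because the identifiers come without names. Planned lists by gene product, closest paralogs, neighbouring genes and marker checks need an annotation and were not run. The members and lists were chosen with earlier results of these data known.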

Additional observations from a re-analysis of the deposited data

Results flagged for a closer look

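The difference between C. orientalis and C. rubella varied with stage in 5 of the 30 genes, where 60% of all genes tested had such a change. It was tested as the change of the log2 fold between stages in the same edgeR fit, a test added after the data were seen. Its Benjamini-Hochberg adjusted p ran from 0.00192 to 0.0339 over the 9 changes called. Carubv10020143m.g changed by 2.95 (SE 0.99) in dividing buds relative to seedlings and by -3.93 (SE 1.03) in expanding relative to dividing buds. In dividing buds C. rubella held 2 counts of it, and fitted values that rest on groups of 0 to 3 counts, here and in the next genes, depend on the prior count. Carubv10027335m.g changed by -6.55 (SE 1.83) between the bud stages: C. orientalis was higher in dividing buds, with 51 counts against 8 in C. rubella, and lower in expanding buds, with 1 count against 24. Carubv10010369m.g changed by -1.61 (SE 0.58) in dividing buds and by -2.20 (SE 0.54) in expanding buds, both relative to seedlings. Carubv10017193m.g changed by -1.02 (SE 0.32) in expanding relative to dividing buds and by -2.81 (SE 0.96) relative to seedlings. Carubv10013834m.g changed by 7.51 (SE 2.74) in dividing buds and by 9.03 (SE 2.82) in expanding buds relative to seedlings. Its seedling libraries held 0 counts in C. orientalis and 1 in C. rubella, so these fitted values are no measure of size, and without replicate 3 of C. rubella seedlings the adjusted p was 0.9999 and 1.

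With only the compared groups in the fit the calls in dividing buds relative to seedlings were lost for Carubv10010369m.g (-1.57) and Carubv10013834m.g (7.38). The same setting called 5 members in expanding buds relative to seedlings, where the fit of all groups called 3. Calls of such a change were also lost without single libraries. For Carubv10010369m.g in dividing buds relative to seedlings these were replicate 1 of C. rubella dividing buds (-1.11), replicate 2 of C. orientalis dividing buds (-1.47), replicate 2 of C. rubella seedlings (-1.29) and replicate 3 of C. orientalis seedlings (-1.45). For Carubv10013834m.g in dividing buds they were replicates 1 (7.06) and 3 (6.91) of C. rubella dividing buds and replicate 1 of C. orientalis seedlings (7.52). For Carubv10020143m.g in dividing buds relative to seedlings they were replicates 1 (2.45) and 2 (2.60) of C. rubella dividing buds. For Carubv10017193m.g between the bud stages they were replicate 3 of C. rubella expanding buds (-0.92), replicates 2 (-0.87) and 3 (-0.93) of C. orientalis expanding buds and replicate 2 of C. rubella dividing buds (-0.84). For the same gene in expanding buds relative to seedlings they were replicates 1 (-2.31) and 2 (-2.31) of C. rubella seedlings and replicate 1 of C. orientalis seedlings (-2.18).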

How the results depend on the processing

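RLE size factors, no filter on low counts, DESeq2 and the replicate block left every count of called members within 1.5 times its value. With only the compared groups in the fit, 6 members were lower in C. orientalis dividing buds and 2 higher in its expanding buds, of 14 that passed the filter, and 5 were higher in C. grandiflora expanding than in dividing buds. Leaving out 1 library gave 5 to 6 members higher and 6 to 7 lower in C. orientalis seedlings relative to C. rubella, 4 to 5 and 9 to 11 in dividing buds, and 2 to 3 and 9 to 10 in expanding buds. In C. grandiflora it gave 11 to 13 higher and 10 to 12 lower in dividing buds than in seedlings, 2 to 4 and 6 to 7 in expanding than in dividing buds, and 7 to 9 and 9 to 11 in expanding buds than in seedlings. The named folds kept their direction and call in all 220 repeats. The replicate block, with the replicate number as a term, gave 5 higher and 10 lower in C. orientalis dividing buds, 4 and 9 in its expanding buds and 4 and 6 between the bud stages of C. grandiflora. Same-numbered libraries did not deviate together between C. orientalis and C. rubella or between stages of C. grandiflora (correlations -0.101 to 0.0594). No pairing by number was seen, though 3 libraries per group are few for this check and C. grandiflora was not set against the selfing species.

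The rule gave 51 genes at a level of 1 CPM, 22 with a pseudocount of 1 CPM or at 8-fold, 29 with TMM-scaled CPM (27 of them members) and 27 to 33 without 1 replicate number of C. grandiflora. Set as the lowest C. grandiflora library against the highest selfing library, 15 genes met it, all members. Counts of the members were few in the selfing species, under 10 over 9 libraries for 10 members in C. orientalis and 7 in C. rubella, which limits the folds between them.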
